A study of Mus musculus with 9 samples.

Results

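Chemokines are small secreted proteins that steer white blood cells, and each acts through G protein-coupled receptors on the cells that it attracts. The 9 genes described here encode inflammatory chemokines and receptors of myeloid cells, the branch of blood cells that holds monocytes and neutrophils. They were taken by symbol from the 20926 genes with an expression value, and all 9 were found. Ccr1 is a signalling receptor for several CC chemokines, while Ccrl2 binds the chemoattractant chemerin without the usual signalling and presents it to other cells. The CC ligands are Ccl3 and Ccl4, which are made by activated leukocytes, and Ccl6 and Ccl9, ligands of Ccr1 that rodent myeloid cells make in the absence of stimulation. The CXC ligands are Cxcl2, which draws neutrophils through Cxcr2, Cxcl10, an interferon-induced ligand of Cxcr3, and Cxcl16, a membrane-bound ligand of Cxcr6 that the proteases Adam10 and Adam17 release. In inflamed joints such ligands and receptors are known for bringing myeloid cells out of the blood.

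Blood RNA came from male DBA/1 mice, labelled as 7 weeks old, in 3 groups of 3 libraries. The Ctrl mice were controls without the arthritis model and without irradiation. The CIA mice had collagen-induced arthritis, raised with chick type II collagen in adjuvant and a later booster, and were not irradiated. In CIA+THz, mice with this arthritis were exposed to a 0.1 THz source on the swollen ankle joints for 30 min on each of 14 days. They were under isoflurane during exposure, which is not described for the other groups, so that irradiation and anaesthesia cannot be told apart. Values are FPKM (fragment numbers set relative to transcript length and library total) divided by a scaling factor for each library, called rescaled FPKM below, and each difference is on the scale of log2(rescaled FPKM + 0.1), which understates changes near 0. Between a pair of groups, a gene was past the criterion when limma's moderated test over 12366 genes gave an unadjusted p under 0.05 and a log2 fold change beyond 0.67 in either direction. Adjusted p is the Benjamini-Hochberg value over all genes tested, and no member reached 0.05 on it between a pair of groups.

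The labels call the samples blood leukocytes, and all 6 genes of a leukocyte list were expressed, with summed rescaled FPKM between 1296 and 1558. Platelet genes summed to between 3797 and 5949, and genes of red cell precursors to between 47553 and 103881, so that the libraries hold RNA of whole blood. No file gives read counts, the depth behind a value is unknown, and the small number of libraries limits the precision. The labels do not say which libraries come from separate mice, and p-values measure the spread between these libraries. In bulk RNA, fewer cells of a type cannot be told apart from less RNA per cell.

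Where the genes lie frames what follows. On mm10 (GRCm38), with GENCODE genes, the CC ligands form a cluster on chromosome 11: Ccl9 (83572919 to 83578636, minus strand), Ccl6 (83587882 to 83593087, minus strand), Ccl3 (83647844 to 83649355, minus strand) and Ccl4 (83662584 to 83664683, plus strand). Between Ccl9 and Ccl6 lie 9245 bases, and between Ccl3 and Ccl4 13228 bases. Cxcl16 is elsewhere on chromosome 11 (70453983 to 70459984, minus strand), and Cxcl2 (90903871 to 90905938, plus strand) and Cxcl10 (92346638 to 92348889, minus strand) are on chromosome 5. Both receptors are on the minus strand of chromosome 9, Ccrl2 at 111054486 to 111057519 and Ccr1 at 123962124 to 123968692. The library kit does not mark strand, and exons of Cxcl16 share 552 bases with Zmynd15 and those of Cxcl10 share 133 bases with Art3, each on the opposite strand, so reads from these stretches cannot be assigned. Zmynd15 and Art3 had group means of at most 0.0300 and 0.0471 rescaled FPKM.

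Promoter sequences of RefSeq (GRCm38.p6, from 250 bases before to 50 after a start site) were found for 7 of the 9 genes, 9 promoters in all, and Ccl4 and Cxcl16 had no entry. They were searched on both strands for a kappaB motif (GGGANNNNCC, bound by the inflammatory factor NF-kappaB), an interferon-stimulated response element (TTTCNNTTTC), a gamma-activated site (TTCNNNGAA) and a TATA box (TATAAA), where N is any base. Of all 32851 promoters of this length, 20.7% held the kappaB motif, 3.44% the interferon element, 8.3% the gamma-activated site and 13.6% the TATA box. The kappaB motif was in 4 of the members' 9 promoters, those of Ccr1, Cxcl2 and Cxcl10 and 1 of Ccrl2, and the interferon element in that of Cxcl10. The TATA box was in the promoter of Ccl9, and the gamma-activated site in none. In the stretches that follow, written 5′ to 3′ on the gene's strand and ending before the start site, capitals mark the matches to the kappaB motif and, in Cxcl10, first the interferon element. They are shown because Ccrl2 and Ccr1, whose fold changes in CIA against Ctrl had opposite signs, both hold a kappaB match. In Cxcl2 the 11 capitals hold overlapping matches on both strands.
Ccrl2, chr9:111057545-111057606, minus strand: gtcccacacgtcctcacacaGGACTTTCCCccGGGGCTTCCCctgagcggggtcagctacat
Ccr1, chr9:123968737-123968786, minus strand: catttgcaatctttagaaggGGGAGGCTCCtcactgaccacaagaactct
Cxcl2, chr5:90903782-90903832, plus strand: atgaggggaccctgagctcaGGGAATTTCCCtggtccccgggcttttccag
Cxcl10, chr5:92348963-92349122, minus strand: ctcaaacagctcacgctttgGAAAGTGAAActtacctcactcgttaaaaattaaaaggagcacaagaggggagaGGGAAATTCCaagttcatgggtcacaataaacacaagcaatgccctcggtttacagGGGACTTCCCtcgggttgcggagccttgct
A match is a description of letters, and binding was not measured.

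By level, which FPKM gives per length, the genes were ordered Ccl6, Ccr1, Ccl9, Ccl3, Ccl4, Ccrl2, Cxcl16, Cxcl2 and Cxcl10 from the highest mean over the 9 libraries to the lowest. Ccl6 averaged 798 rescaled FPKM, above 99.4% of the 12366 genes tested, and Ccr1 averaged 185. Ccl9 followed at 55.1, Ccl3 at 13.3, Ccl4 at 11.0 and Ccrl2 at 6.32. Cxcl16, Cxcl2 and Cxcl10 were near the limit of detection at 1.20, 0.191 and 0.0946. Every library had more Ccl6 than Ccr1, more Ccr1 than Ccl9 and more Ccl9 than Ccl3. The ranges of Ccl3 and Ccl4 overlapped in Ctrl and CIA, those of Ccl4 and Ccrl2 in CIA, those of Ccrl2 and Cxcl16 in Ctrl, those of Cxcl16 and Cxcl2 in Ctrl and CIA+THz, and those of Cxcl2 and Cxcl10 in every group. Of the 9 genes, 8 reached the minimum mean of 0.1 for the test and Cxcl10 did not.

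**Figure D1:**
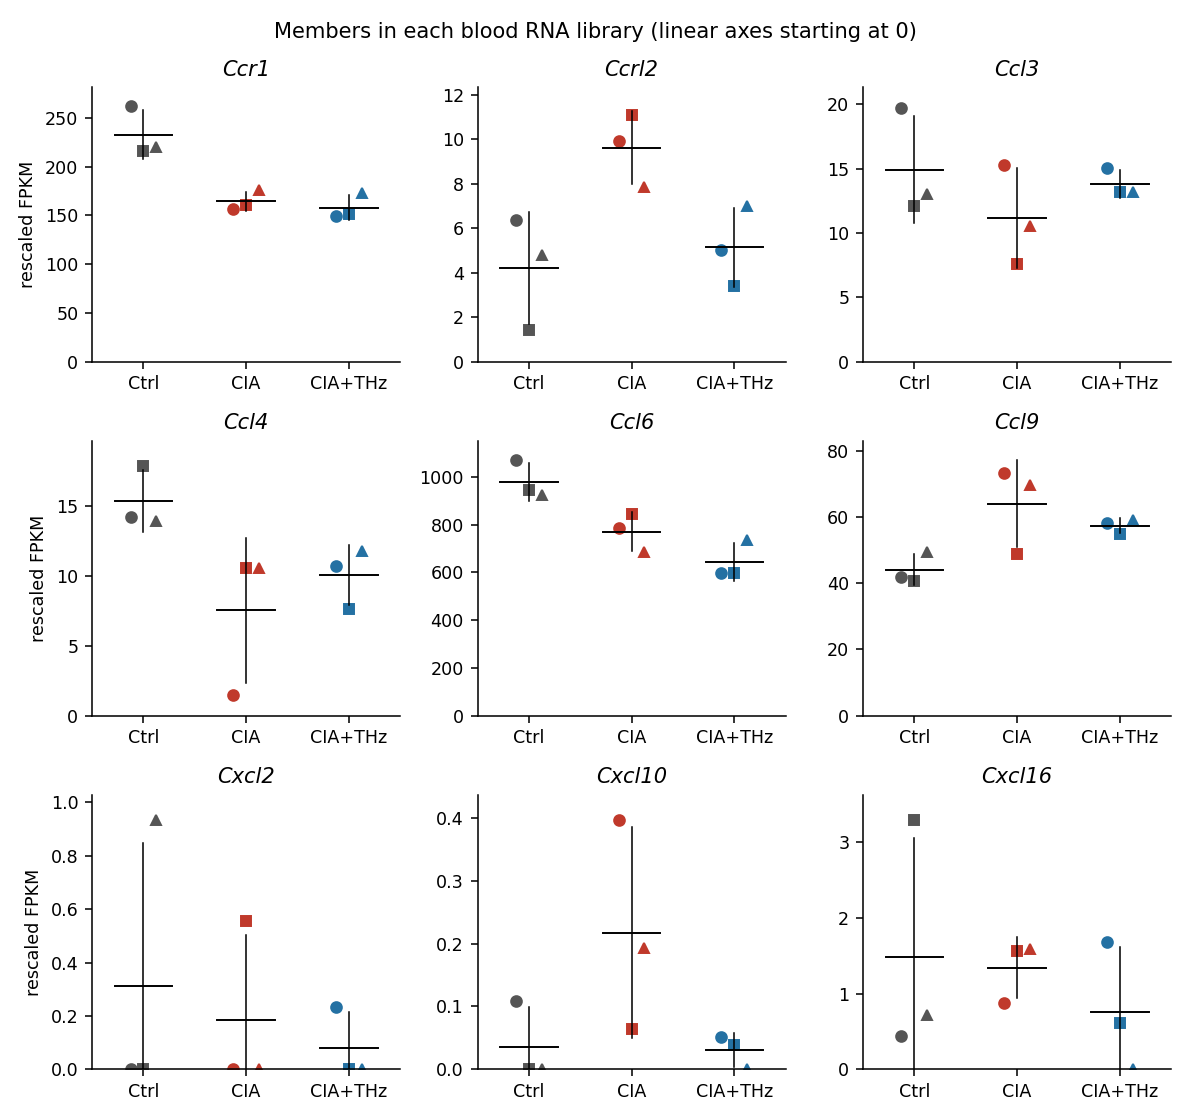
Rescaled FPKM (vertical axes, linear from 0, a scale for each gene) of the 9 genes in the Ctrl, CIA and CIA+THz libraries. Each point is a library, with a circle, square and triangle for replicates 1, 2 and 3, and bars give the mean and SD of 3 libraries. Ccr1 and Ccl6 are highest in Ctrl, Ccrl2 is highest in CIA, and the CXC ligands lie near 0.

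Across the 3 groups, 4 of the 8 tested genes (Ccr1, Ccrl2, Ccl6 and Ccl9) passed limma's F-test at an unadjusted p under 0.05, against 21.3% of all genes tested. Without a variance trend, or with the libraries scaled to 14 ubiquitous genes, 2 of the 8 did. Only Ccr1 also passed after adjustment (adjusted p = 0.0459 by limma). The adjusted p was 0.0838 for Ccl6, 0.149 for Ccl9 and 0.197 for Ccrl2.

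The receptors differed in opposite directions between CIA and Ctrl. Ccrl2 rose in CIA while Ccr1 was lower. The rescaled FPKM of Ccrl2 was 6.37, 1.44 and 4.78 in the Ctrl libraries, 9.90, 11.1 and 7.87 in the CIA libraries and 5.02, 3.41 and 6.99 in the CIA+THz libraries. Every CIA library was above every library of both other groups, and the Ctrl and CIA+THz libraries overlapped. Ctrl averaged 4.20 ± 2.52 (SD, n = 3), CIA 9.62 ± 1.63 and CIA+THz 5.14 ± 1.79. The log2 fold change of Ccrl2 in CIA against Ctrl was 1.40 (standard error 0.51, 95% confidence interval 0.20 to 2.60, limma's adjusted p = 0.234), past the criterion. The lowest Ctrl library set much of its size, since without Ctrl replicate 2 the change was 0.78. Leaving out any 1 of the CIA libraries took it out of the criterion.

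After irradiation, in CIA+THz against CIA, Ccrl2 fell by 0.94 on the log2 scale (standard error 0.28, 95% confidence interval -1.60 to -0.27, limma's adjusted p = 0.265), again past the criterion. This held in all 6 fits that each left out 1 library, with changes between -1.18 and -0.68. It did not hold with FPKM as deposited, where the change was -0.66, nor with all 3 groups in a fit. Against Ctrl the change of Ccrl2 in CIA+THz was 0.46 (adjusted p = 0.689 by limma), with an interval from -0.81 to 1.73 that leaves room for a difference in either direction.

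Ccr1 was expressed far above Ccrl2, at 262, 216 and 220 rescaled FPKM in Ctrl, 157, 160 and 176 in CIA and 150, 151 and 172 in CIA+THz. All 6 arthritic libraries, irradiated or not, were below all 3 Ctrl libraries, and the CIA and CIA+THz libraries overlapped. With FPKM as deposited, Ctrl replicate 2 (183) was below CIA+THz replicates 1 (186) and 3 (189). The share of all genes whose groups separate in this way was not counted. In CIA against Ctrl the log2 fold change was -0.50 (standard error 0.12, limma's adjusted p = 0.120), and in CIA+THz against Ctrl it was -0.56 (standard error 0.12, adjusted p = 0.103), both at an unadjusted p under 0.05 but under the fold of the criterion. Between CIA+THz and CIA the change was -0.06 (adjusted p = 0.821 by limma), with an interval from -0.29 to 0.17. With FPKM as deposited that change was 0.22, and the change of Ccr1 in CIA+THz against Ctrl was -0.25, with an unadjusted p above 0.05.

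The neighbouring ligands Ccl6 and Ccl9 had fold changes of opposite sign in both arthritic groups against Ctrl, none past the criterion. Ccl6 was at 1070, 944 and 924 rescaled FPKM in Ctrl, 785, 843 and 685 in CIA and 595, 599 and 737 in CIA+THz. The arthritic libraries were all below the Ctrl libraries, and CIA+THz overlapped CIA through its replicate 3. With FPKM as deposited, Ctrl replicate 2 (799) was below CIA replicate 2 (817) and CIA+THz replicate 3 (810). The log2 fold change of Ccl6 was -0.35 in CIA against Ctrl (standard error 0.15, limma's adjusted p = 0.287) and -0.61 in CIA+THz against Ctrl (standard error 0.14, adjusted p = 0.121), both with an unadjusted p under 0.05. Between the arthritic groups it was -0.26 (adjusted p = 0.455 by limma), and 0.015 with FPKM as deposited. The call of Ccl6 in CIA against Ctrl was fragile, since its unadjusted p was above 0.05 in 5 of the 6 fits that each left out 1 library (all but that without CIA replicate 2), with FPKM as deposited, without a trend and with the replicate block. In CIA+THz against Ctrl it was under 0.05 in all 6 such fits.

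Ccl9 was at 41.9, 40.7 and 49.4 rescaled FPKM in Ctrl, 73.2, 48.9 and 69.7 in CIA and 58.2, 54.7 and 58.9 in CIA+THz. CIA replicate 2 lay within the Ctrl range, the other CIA libraries lay above all libraries of the other groups, and all CIA+THz libraries were above all Ctrl libraries. The log2 fold change was 0.52 in CIA against Ctrl (standard error 0.18, limma's adjusted p = 0.212) and 0.38 in CIA+THz against Ctrl (standard error 0.11, adjusted p = 0.151), both at an unadjusted p under 0.05 and neither past the fold of the criterion. Without CIA replicate 2 the first was 0.70 and passed it, but its unadjusted p was above 0.05 in 4 of the 6 fits that each left out 1 library (Ctrl replicate 1 or 2, or CIA replicate 1 or 3), without a trend and with the ubiquitous scaling. The second stayed under 0.05 in all 6 of its fits. Between CIA+THz and CIA the change was -0.14 (adjusted p = 0.748 by limma), and 0.14 with FPKM as deposited.

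The ratio of Ccl9 to Ccl6 within a library, each taken as rescaled FPKM + 0.1, hardly depends on the scaling between libraries. The Ctrl libraries had ratios of 0.0392, 0.0433 and 0.0536, the CIA libraries of 0.0934, 0.0580 and 0.102, and the CIA+THz libraries of 0.0980, 0.0915 and 0.0801. All arthritic libraries were above all Ctrl libraries, and CIA overlapped CIA+THz. Of the summed FPKM of the 7 ligands, Ccl6 took 92.8% ± 0.566 (SD, n = 3) in the Ctrl group, 90.0% ± 2.20 in the CIA group and 88.6% ± 1.21 in the CIA+THz group, and Ccl9 took 4.20% ± 0.661, 7.56% ± 1.93 and 7.94% ± 0.699. Ctrl had a sum of 1055 ± 79.2 rescaled FPKM, CIA of 855 ± 70.0 and CIA+THz of 726 ± 82.6. Most of this sum is Ccl6, whose log2 fold change between CIA+THz and CIA was 0.015 with FPKM as deposited. The lower sum in CIA+THz than in CIA thus depends on the rescaling, and the sums were not tested.

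**Figure D2:**
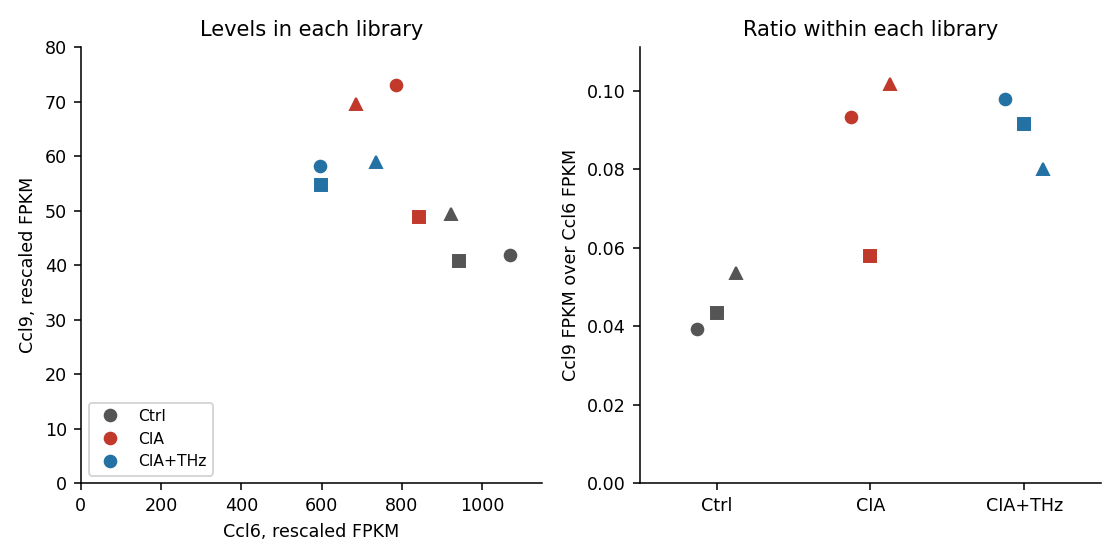
Left, Ccl9 against Ccl6 in each library, both in rescaled FPKM. Right, the ratio of Ccl9 to Ccl6 within each library, each taken as rescaled FPKM + 0.1, by group. Points are single libraries (circle, square and triangle for replicates 1, 2 and 3), and all 6 CIA and CIA+THz libraries have a ratio of 0.0580 or more, above the 3 Ctrl libraries.

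The 100 bases before the start sites of Ccl6 and Ccl9 are shown because the fold changes of these neighbours against Ctrl had opposite signs, although neither gene passed the criterion and both were lower in CIA when scaled to the monocyte or the neutrophil list. Capitals mark stretches of 8 or more bases that occur in both on the gene's strand.
Ccl6, chr11:83593088-83593187, minus strand: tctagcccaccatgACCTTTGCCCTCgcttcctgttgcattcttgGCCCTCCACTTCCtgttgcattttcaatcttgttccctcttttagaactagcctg
Ccl9, chr11:83578637-83578736, minus strand: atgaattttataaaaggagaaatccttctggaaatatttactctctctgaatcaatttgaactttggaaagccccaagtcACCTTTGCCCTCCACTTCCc
The shared stretches cover 25 bases in Ccl6, in separate pieces, and 19 bases in Ccl9, in an unbroken run next to the start. The TATAAA of Ccl9 lies 92 to 87 bases before its start.

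Ccl3 and Ccl4 attract monocytes and lymphocytes, and Ccl3 is a ligand of Ccr1. Ccl3 was at 19.7, 12.1 and 13.03 rescaled FPKM in Ctrl, 15.3, 7.62 and 10.5 in CIA and 15.1, 13.2 and 13.2 in CIA+THz, and the groups overlapped. Its log2 fold changes were -0.44, 0.36 and -0.08 in CIA against Ctrl, CIA+THz against CIA and CIA+THz against Ctrl, with intervals from -1.14 to 0.25, from -0.23 to 0.95 and from -0.55 to 0.38 and no unadjusted p under 0.05 by limma.

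Ccl4 was at 14.2, 17.9 and 14.0 rescaled FPKM in Ctrl, 1.50, 10.5 and 10.5 in CIA and 10.7, 7.65 and 11.8 in CIA+THz. CIA replicate 1 stood apart from its group, and all arthritic libraries were below all Ctrl libraries. With FPKM as deposited, Ctrl replicate 1 (13.1) was below CIA+THz replicate 1 (13.3). The log2 fold change of Ccl4 was -1.44 in CIA against Ctrl (standard error 0.70, adjusted p = 0.339 by limma), and -0.53 without CIA replicate 1. The irradiated group was at -0.62 against Ctrl (standard error 0.20, limma's adjusted p = 0.176), with an unadjusted p under 0.05 but under the fold of the criterion. That unadjusted p was above 0.05 with FPKM as deposited, where the change was -0.32, and with all 3 groups in a fit. Of the 6 fits that each left out 1 library, it was above 0.05 in 1, without Ctrl replicate 2. Between CIA+THz and CIA the change of Ccl4 was 0.82 (adjusted p = 0.658 by limma), and -0.092 without CIA replicate 1.

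The CXC ligands were near 0 in this blood RNA. Cxcl2 was listed at 0 in 6 of the 9 libraries, and the others were Ctrl replicate 3 at 0.933, CIA replicate 2 at 0.554 and CIA+THz replicate 1 at 0.234. Cxcl16 was at 0.444, 3.29 and 0.714 in Ctrl, 0.878, 1.56 and 1.59 in CIA and 1.68, 0.609 and 0 in CIA+THz, and its adjusted p across the groups was 0.546 by limma. The intervals of these genes ran over more than 2 log2 units in every comparison, so differences of several fold were not detectable.

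Cxcl10 was at 0.108, 0 and 0 rescaled FPKM in Ctrl, 0.396, 0.0639 and 0.193 in CIA and 0.0515, 0.0390 and 0 in CIA+THz. All CIA+THz libraries were below all CIA libraries, and Ctrl replicate 1 lay within the CIA range. With FPKM as deposited, CIA+THz replicate 1 (0.0638) was above CIA replicate 2 (0.0620). The mean of Cxcl10 was below the minimum for the test. In a fit without a minimum its log2 fold change in CIA+THz against CIA was -1.17 (limma's adjusted p = 0.402), and in CIA against Ctrl 1.17 (adjusted p = 0.380).

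**Figure D3:**
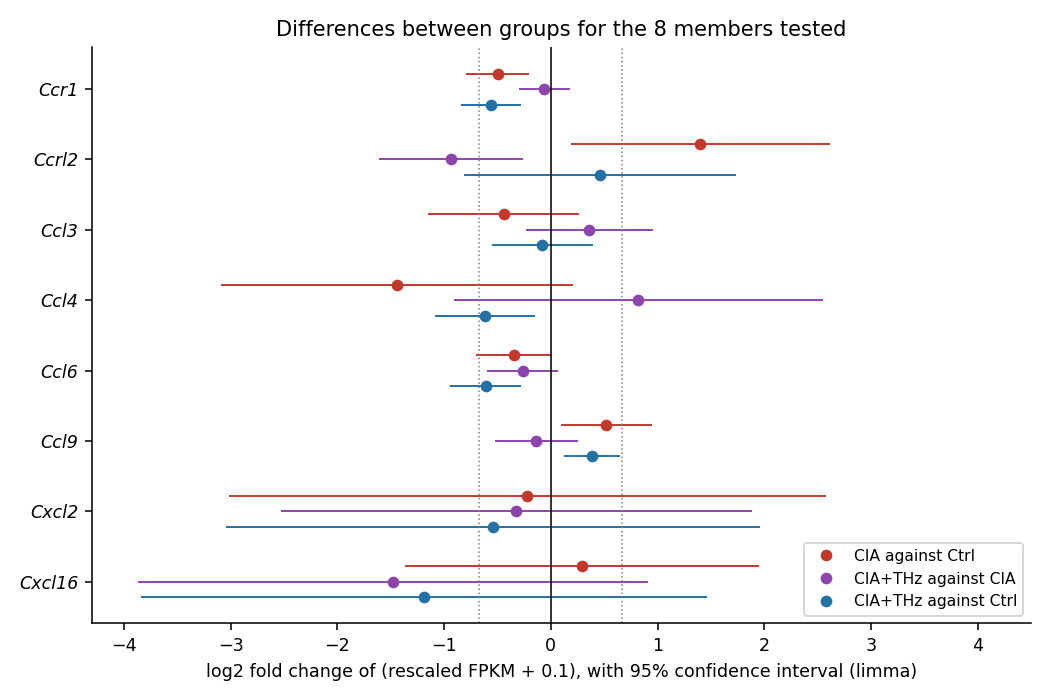
Log2 fold changes of (rescaled FPKM + 0.1) with 95% confidence intervals from limma, for the 8 tested genes (rows) in the 3 comparisons (colours), each fitted on 6 libraries. Dotted lines mark the fold of the criterion, 0.67 in either direction; the intervals of Ccrl2 exclude 0 in CIA against Ctrl and in CIA+THz against CIA, and every interval of Cxcl2 and Cxcl16 includes 0.

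In CIA against Ctrl, 1 of the 8 tested genes was past the criterion in the higher direction (Ccrl2) and 0 in the lower, beside 4.79% and 4.25% of all genes tested. At an unadjusted p under 0.05 alone, 2 were higher (Ccrl2 and Ccl9) and 2 lower (Ccr1 and Ccl6), beside 8.85% and 8.45% of all genes. Ccl4 was also past the criterion, in the lower direction, when all 3 groups entered a fit or when the minimum mean was 1. Between CIA+THz and CIA, 0 were past the criterion in the higher direction, beside 2.94% of all genes, and 1 in the lower (Ccrl2), beside 1.6%. The same 0 and 1 held at p alone, beside 5.89% and 7.33%. For CIA+THz against Ctrl, none of the 8 genes was past the criterion in limma's test, beside 4.64% of all genes higher and 3.24% lower. At p alone, 1 was higher there (Ccl9) and 3 lower (Ccr1, Ccl4 and Ccl6), beside 8.39% and 9.69%. The median log2 fold change of the 8 genes in the 3 comparisons was -0.28, -0.20 and -0.55, beside -0.01, 0.03 and 0.04 over all genes tested. The comparisons share libraries, so their values are not independent. Of the 8, none had an adjusted p under 0.05 in CIA+THz against CIA by limma, nor did any other gene tested, while at an unadjusted p under 0.05 there were 1634 by limma.

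Markers of myeloid cells also differed between the groups. The 12 genes of a monocyte list summed to between 3113 and 3459 rescaled FPKM in Ctrl, 5434 and 6017 in CIA and 3630 and 3907 in CIA+THz. In CIA against Ctrl 8 of the 12 were higher and 0 lower past the criterion, with a median change of 1.07, and between CIA+THz and CIA 3 were lower (Chil3, Ms4a6d and Fn1), with a median of -0.45. Of 12 neutrophil genes, 3 that encode granule proteins (Camp, Ltf and Ngp) were higher and Mmp8 was lower in CIA, with a median of -0.03 over the list. Irradiated against untreated arthritis gave 4 lower and 0 higher, with a median of -0.45. The neutrophil sums ran from 12678 to 21421 in Ctrl, from 14771 to 19457 in CIA and from 10855 to 12339 in CIA+THz. Like Ccrl2, the monocyte sums were higher in every CIA library than in every other library, while Ccr1 and Ccl6 were highest in Ctrl.

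Scaling the libraries to a list of cell type genes moved all genes together, and the members with them. With the mean of the monocyte list set equal in all libraries, the median log2 fold change of all genes was -1.06 in CIA against Ctrl, 0.43 between CIA+THz and CIA and -0.61 between CIA+THz and Ctrl, beside -0.01, 0.03 and 0.04 before. On that scale 4 members (Ccr1, Ccl3, Ccl4 and Ccl6) were lower past the criterion in CIA against Ctrl, beside 61.6% of all genes, and the same 4 in CIA+THz against Ctrl, beside 35.6%. These counts follow the shift of all genes and are not a result about the members. Ccr1 was then at -1.61, Ccl6 at -1.46, Ccl3 at -1.54 and Ccl9 at -0.59 in CIA against Ctrl. Ccrl2 was at 0.31 in CIA against Ctrl and at -0.51 in CIA+THz against CIA, neither past the criterion. The member past it in CIA+THz against CIA was then Ccl3, which was higher (0.79), beside 16.5% of all genes higher.

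Scaled to the neutrophil list, whose mean is moved by Camp, Ltf and Ngp, the median of all genes was -0.79 in CIA against Ctrl and 0.77 in CIA+THz against CIA. The same 4 members were lower past the criterion in CIA against Ctrl, beside 39.1% of all genes, and Ccl3 (1.14), Ccl4 (1.60) and Ccr1 (0.73) were higher in CIA+THz against CIA, beside 43% of all genes. Ccrl2 was at 0.58 and -0.16 in these comparisons. Scaled to the 14 ubiquitous genes, Ccrl2 was past the criterion in both, higher in CIA than in Ctrl beside 2.89% of all genes and lower after irradiation beside 0.873%. The part of the cell mixture in these differences was not tested beyond these scalings.

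**Figure D4:**
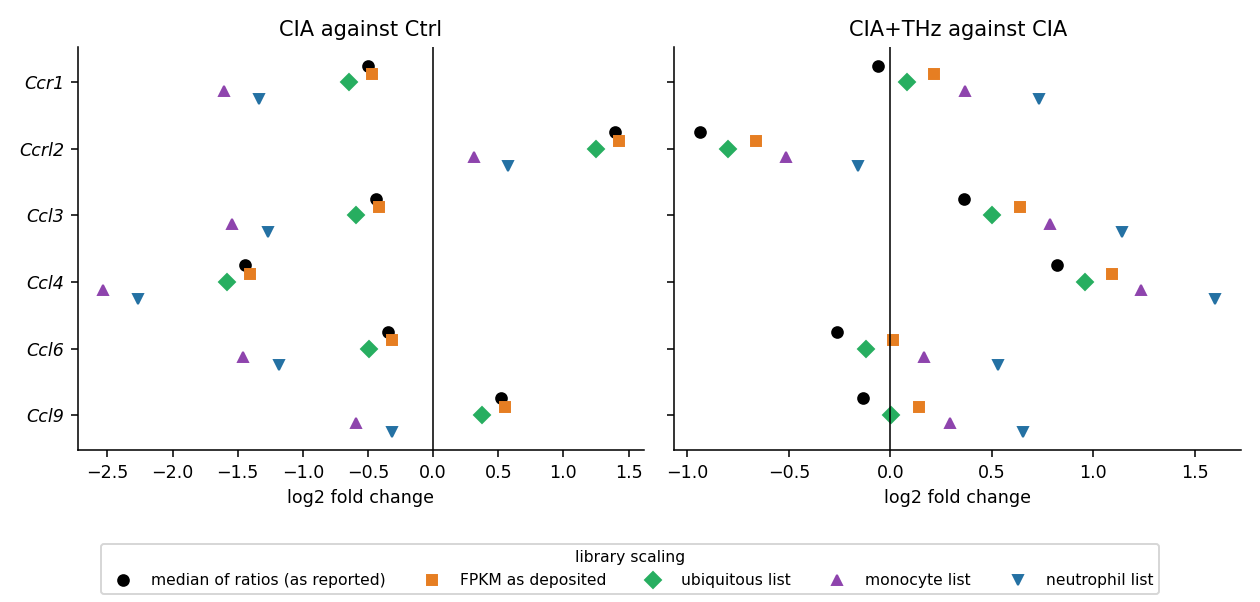
Log2 fold changes (horizontal axes) of the 6 genes with a mean of at least 6 rescaled FPKM under 5 scalings of the libraries, in CIA against Ctrl (left) and CIA+THz against CIA (right). Ccrl2 keeps its sign under all 5 in both panels, although its size shrinks with the monocyte and neutrophil scalings, and Ccr1, Ccl6 and Ccl9 change sign in CIA+THz against CIA.

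The receptors of these ligands were expressed at different levels. Cxcr2, the neutrophil receptor of Cxcl2, averaged 709 ± 72.1 rescaled FPKM (SD, n = 3) over the Ctrl libraries, 554 ± 58.7 in CIA and 454 ± 29.8 after irradiation. Its log2 fold change was -0.36 in CIA against Ctrl (adjusted p = 0.272 by limma) and -0.28 between CIA+THz and CIA (adjusted p = 0.372). Both had an unadjusted p under 0.05 and were under the fold of the criterion. The change of Cxcr2 between CIA+THz and CIA had about the size of the rescaling shift, which lowered log2 values there by 0.28. It therefore depends on the rescaling. Cxcr6, the receptor of Cxcl16, was past the criterion in CIA against Ctrl, from 0.766 ± 0.354 to 1.64 ± 0.404 (log2 fold change 1.05, adjusted p = 0.265 by limma). Cxcr3, the receptor of Cxcl10, was at 3.24 ± 1.62 in Ctrl, 2.85 ± 0.724 in CIA and 2.72 ± 0.653 after irradiation, with no unadjusted p under 0.05 by limma.

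Around Ccrl2, the chemerin gene Rarres2 was listed at 0 in 7 of the 9 libraries and Gpr1, another chemerin receptor, in all 9. Cmklr1, the signalling chemerin receptor, averaged 1.55 ± 0.386 rescaled FPKM in Ctrl, 1.10 ± 0.584 in CIA and 1.67 ± 0.303 after irradiation (adjusted p = 0.520 by limma across the groups). The proteases that release Cxcl16 were far above it, Adam10 at 31.0 ± 3.83, 26.1 ± 4.60 and 26.8 ± 0.197 and Adam17 at 31.9 ± 2.41, 28.3 ± 2.20 and 26.2 ± 2.17. Neither was past the criterion in a comparison.

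Of 21 other chemokine receptors 19 were tested. In CIA against Ctrl, 2 were higher (Ccr2 and Cxcr6) and 2 lower (Ccr9 and Xcr1) past the criterion, and between CIA+THz and CIA none was by limma, while 4 reached an unadjusted p under 0.05. Ccr2, the receptor that brings monocytes out of the marrow, was at 66.7 ± 14.5 rescaled FPKM in Ctrl and 127 ± 34.4 in CIA (log2 fold change 0.92, adjusted p = 0.135 by limma), the opposite direction to Ccr1. Of 28 other chemokine ligands 13 were tested and 10 were listed at 0 in all libraries. Ccl2 and Cxcl5, both listed at 0 in all CIA libraries, were lower in CIA than in Ctrl past the criterion, and Cxcl12 was higher in CIA+THz than in CIA.

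Among 28 genes of chemokine receptor signalling, all tested, 1 (Plcb3) was higher and 0 lower past the criterion in CIA against Ctrl. At an unadjusted p under 0.05 by limma, 7 were higher there and 3 lower, beside 8.85% and 8.45% of all genes tested. Between CIA+THz and CIA none was past the criterion, while 8 were lower at an unadjusted p under 0.05 by limma, beside 7.33% of all genes. The median change of the list was then -0.155, and the rescaling lowered log2 values in that comparison by 0.28. Of 15 NF-kappaB response genes, only Tnf was past the criterion in CIA against Ctrl, where it was lower (log2 fold change -0.78, adjusted p = 0.268 by limma). At an unadjusted p under 0.05 by limma, 4 of the 15 were higher in that comparison and 1 was lower, beside 8.85% and 8.45% of all genes tested. After irradiation none of the 15 was past the criterion against CIA by limma, and 3 were lower at an unadjusted p under 0.05, beside 7.33% of all genes. Against Ctrl, in CIA+THz, Tnf, Nlrp3 and Ier3 were lower and Cd83 was higher. Of 15 interferon response genes, those higher in CIA than in Ctrl past the criterion included Gbp2 and Oas1a, and Isg15 was lower after irradiation than in CIA. The median changes of the NF-kappaB and interferon lists in CIA against Ctrl were 0.11 and 0.38.

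As a description, the genes whose log2 values were most like those of each member were sought among 9741 genes with a mean of at least 1. Over the 9 libraries, which share their groups, Pearson's r was 0.98 for Ccr1 with Slc38a2 and with Map3k8, 0.96 for Ccrl2 with Bcl2l11 and 0.95 with Pla2g7. For Ccl9 it was 0.99 with Gpr35 and 0.96 with U2af1, and for Ccl6 0.96 with Mctp1 and 0.95 with Hist1h2br. Ccl3 was most like Nek1 (0.96) and Cbll1 (0.94), Ccl4 most like Cmc4 (0.96) and Treml2 (0.95), and Cxcl16 most like Tmem42 and Atxn7l3 (both 0.90). Spearman's rho was 0.47 for Ccl4 with Cmc4 and lay between 0.77 and 1 for the other pairs. These partners were picked as the highest of 9741 genes over only 9 libraries, so their r is raised by that choice. Shared control was not tested. Among the members themselves, r was 0.86 between Ccr1 and Ccl6, -0.65 between Ccl6 and Ccl9, -0.30 between Ccr1 and Ccrl2 and -0.15 between the neighbours Ccl3 and Ccl4.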

How the data were processed

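Blood RNA was sequenced by the authors (TruSeq RNA V2 libraries, 2 x 150 bp) in 3 Ctrl, 3 CIA and 3 CIA+THz libraries, grouped by their labels. The authors deposited FPKM values of 20926 genes by symbol. The submitters' processing notes name bcl2fastq 2.0, HISAT2, StringTie, DESeq2 and mm10, and the annotation and strand setting are not given in the sources used here. FPKM is relative to the total of each library, and Alas2, a red cell gene, took 11.4% to 16.7% of the summed FPKM. Each column was therefore divided by a median-of-ratios factor (0.847 to 1.24, over the 10312 genes above 0 in all libraries), which lowered log2 values of CIA+THz relative to CIA by 0.28. Low FPKM values showed no whole-read steps, so the depth is unknown and no count test was run.

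Genes with a mean of at least 0.1 were tested as log2(rescaled FPKM + 0.1) with limma 3.58.1 (lmFit, eBayes with a trend) in R 4.3.3, by an F-test over all libraries and by fits of each pair of groups. Adjusted p is Benjamini-Hochberg over all 12366 genes tested, and all tests are two-sided. Fold changes were compared under other scalings, pseudocounts (1), minimum means (1 or none), no trend, a replicate block, a joint fit, the adjusted p and each library left out. The scripts were tested on simulated data. The members and lists were chosen with earlier results of these data known. Named beside the 9 members were their receptors, the chemerin genes and sheddases, and of each other list at most the 5 genes with the smallest p past the criterion; Zmynd15 and Art3 were named for their overlap with members, and the granule genes of the neutrophil list after their values were seen. Of 224 list entries 3 were absent from the table, and a few list genes are not reported here by name. Coordinates and promoters are those of GENCODE and RefSeq on GRCm38, matched by symbol.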

Additional observations from a re-analysis of the deposited data

How the results depend on the processing

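Of the values of single members (log2 fold changes and p across the groups) under alternatives, 440 kept their direction and their side of the criterion, 34 passed it newly, 23 no longer passed it and 27 changed sign. Ccrl2 kept its sign in CIA against Ctrl and in CIA+THz against CIA under every alternative run. The cause of the changes below was not tested, except that scaling to a list removes that list's own mean by construction and moves all genes together.

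With FPKM as deposited, 1199 genes passed in CIA+THz against CIA (1133 higher) and 1720 in CIA+THz against Ctrl (1600 higher); 0 members passed in the first and 1 in the second; and signs changed in CIA+THz against CIA for Ccr1 (0.22), Ccl6 (0.015) and Ccl9 (0.14) and in CIA+THz against Ctrl for Ccl3 (0.22). A pseudocount of 1 gave 283 genes in CIA+THz against CIA. With the adjusted p, 313 genes remained across the 3 groups, 19 in CIA against Ctrl, 0 between CIA+THz and CIA and 13 in CIA+THz against Ctrl; of the members, 1 remained across the groups and 0 in CIA against Ctrl and in CIA+THz against CIA. Across the groups, 2 members passed without a trend and 2 with the ubiquitous scaling, which also turned Ccr1 to 0.080 and Ccl9 to 0.0048 in CIA+THz against CIA. In CIA against Ctrl, 2 members passed with a minimum mean of 1, 0 with no minimum, and 2 with all groups in a fit. In CIA+THz against CIA, 2 passed with no minimum and 0 with all groups in a fit. With the monocyte scaling, 4 members passed in CIA against Ctrl and 4 in CIA+THz against Ctrl, all lower, beside 61.6% and 35.6% of all genes lower, and the changed signs were Ccl9 (-0.59) and Cxcl16 (-0.72) in CIA against Ctrl, Ccr1 (0.37), Ccl6 (0.17) and Ccl9 (0.29) in CIA+THz against CIA, and Ccrl2 (-0.20) and Ccl9 (-0.30) in CIA+THz against Ctrl. With the neutrophil scaling, 4 passed in CIA against Ctrl, all lower, and 3 in CIA+THz against CIA, all higher, beside 39.1% and 43% of all genes, and the changed signs were Ccl9 (-0.31) and Cxcl16 (-0.47) in CIA against Ctrl and Ccr1 (0.73), Ccl6 (0.53) and Ccl9 (0.65) in CIA+THz against CIA.

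Same-numbered libraries of different groups did not deviate together (correlations of their deviations between -0.052 and 0.031). Such correlations cannot exclude a shared batch or a pairing of libraries. With the replicate number as a block, 2 members passed in CIA against Ctrl, Ccrl2 and Ccl4. Leaving out 1 library at a time gave 724 to 1487 genes in CIA+THz against Ctrl, the most without Ctrl replicate 3, and 0 to 1 members in CIA against Ctrl, 1 to 2 between CIA+THz and CIA and 0 to 2 between CIA+THz and Ctrl. The log2 fold changes that turned sign then ran from -0.22 to 0.13 for Ccl3 and from -0.16 to 0.87 for Ccrl2 in CIA+THz against Ctrl, from -0.092 to 1.28 for Ccl4 in CIA+THz against CIA, and from -0.25 to 1.07 for Cxcl16 in CIA against Ctrl. For Cxcl2 they ran from -1.12 to 0.90, from -0.90 to 0.58 and from -1.12 to 0.58 in the 3 comparisons. Where a library was left out, the pair kept 5 libraries. Depth is unknown, so the counting error of Cxcl2, Cxcl10 and Cxcl16 could not be given.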

Other observations

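Other blood cells in the same libraries gave the following counts past the criterion. All 12 tested T cell genes were lower in CIA than in Ctrl, of which Il7r passed, and all 12 were higher in CIA+THz than in the CIA group, of which none passed by limma and 7 had an unadjusted p under 0.05. Of 7 tested NK cell genes, Prf1, Ncr1 and Gzma, which encode a pore-forming protein, an activating receptor and a granule protease, were lower in CIA than in Ctrl, and Prf1 was higher in CIA+THz than in CIA. Of 9 tested B cell genes, Blk was higher in CIA than in Ctrl, and none passed in CIA+THz against CIA, where 3 were higher at an unadjusted p under 0.05 by limma. None of the 9 platelet genes passed in any comparison, while 6 were lower after irradiation than in CIA at an unadjusted p under 0.05 by limma. The median change of the platelet list was then -0.32, and the rescaling lowered log2 values in that comparison by 0.28. Of 7 genes of patrolling monocytes, Nr4a1 was higher in CIA than in Ctrl and Ace in CIA+THz than in CIA, and in CIA+THz against Ctrl 5 of the 7 were higher, a direction that Ccr1 and Ccl6 did not share. Of 7 tested genes of basophils and eosinophils, Cpa3 and Mcpt8 passed in CIA against Ctrl in opposite directions, with a median of 0.06 over the list. After irradiation, Cpa3 and Fcer1a were higher than in CIA and passed, while the other 5 had changes below 0, with a median of -0.24 over the list. Of 6 leukocyte genes, only Ptprc was higher after irradiation than in CIA, and it passed. The other 5 had changes below 0, of which 2 had an unadjusted p under 0.05 by limma, and the median of the list was -0.20. Of 7 tested genes of red cell precursors, those lower in CIA+THz than in Ctrl included Slc4a1. Of 14 ubiquitous genes, none passed in a comparison by limma, although 3 were lower after irradiation than in CIA at an unadjusted p under 0.05. The median change of the ubiquitous list was then -0.12, beside the same rescaling shift of 0.28.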
